A study of Sus scrofa with 30 samples.

Results

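The TGF-beta signalling core of the sow mammary gland was followed through 10 genes: the ligands TGFB1, TGFB2 and TGFB3, the receptors TGFBR1 and TGFBR2, the co-receptor TGFBR3, the receptor-activated SMADs SMAD2 and SMAD3, the common SMAD4 and the inhibitory SMAD7. They were chosen by name, and their values were the sums over the 28 reference transcripts that the table holds for them, out of 14958 genes, 11061 assembled loci and 61773 transcripts in all. The 30 libraries came from mammary parenchyma of multiparous half-sibling crossbred sows (Danish Landrace × Yorkshire), untreated and sampled at slaughter below the teats of the left side. Gestating sows were taken at day 70 (MG) or day 110 (LG), lactating sows 2 days (EL) or 10 days (PL, peak lactation) after farrowing, and weaned sows 2 days after their litter had left (W2). Each stage had 6 sows, and every sow gave 1 library. The tissue was bulk parenchyma, in which fewer cells of a type and less RNA per cell cannot be told apart.

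Ligands of this family are secreted in a latent form and, once released, bind TGFBR2, which then recruits and activates TGFBR1. TGFBR1 phosphorylates SMAD2 and SMAD3, which join SMAD4 and regulate genes in the nucleus, while SMAD7, itself a target of the pathway, blocks the receptors. TGFBR3, also called betaglycan, presents ligand to TGFBR2 and matters most for TGF-beta 2, which binds TGFBR2 poorly on its own. In the mammary gland the pathway is known for restraining ductal growth and milk secretion and for a part in cell death after weaning.

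Some features of the table bear on every value. In each stage 3 of the 6 samples were near-identical (median relative difference of at most 1.80 to 1.85% between them, against 19.6 to 59.8% between the others) and equal to the mean of the others to within 0.688 to 0.741%, so the other 3 were counted, giving 15 samples and n = 3 per stage. In the sample records the libraries titled EL carry the stage name of mid-gestation and those titled MG that of early lactation. They were grouped by title, and the means of all 6 milk protein genes rose in the order MG, LG, EL (CSN2, a casein, from 9818 over 21899 to 46799 units). Values are given in units on the TPM scale, which are per transcript length. Units are shares of a fixed total, so a rise of some genes leaves fewer units for the others. The 6 milk proteins held 91237 to 285004 units in PL against 5781 to 8140 in W2. The median log2 fold change of all genes and loci was −0.57 for PL vs MG and 0.68 for W2 vs PL. How much of this shift the milk proteins account for was not tested. PL sample 2 stood apart, with 59.9% of its units in its 20 highest transcripts against 25.6 to 43.0% in the other 14 counted samples. Called differences of the 10 genes are therefore given as deposited and with their value or adjusted p after median ratio scaling, which divides out the shift of the typical gene.

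Among the ligands, TGFB2 rose at peak lactation and fell after weaning. It was low, with a mean of 3.61 units that exceeded 38.7% of reference genes. TGFB2 (chr10:8306136-8435307, Sscrofa11.1) was at 2.40, 3.11 and 2.52 units in MG, 2.33, 2.24 and 2.79 in LG and 3.36, 2.33 and 2.55 in EL. It stood at 4.64, 7.81 and 8.16 units in PL and at 2.46, 3.60 and 3.91 in W2. All 3 PL samples lay above the other 12, which held for 1.1% of all features. The rise was 2.27-fold for PL vs MG (log2 fold change 1.18 ± 0.26 SE, adjusted p = 0.0072, limma), 1.29 ± 0.26 on the log2 scale for PL vs LG (adjusted p = 0.00747) and 1.16 ± 0.26 for PL vs EL (adjusted p = 0.026). From PL to W2 it fell by 0.93 ± 0.26 on the log2 scale (adjusted p = 0.0173). Since the typical gene moved the other way, scaling enlarged these differences to 1.78, 1.75, 1.48 and −1.60, with scaled levels of 8.20 to 9.72 in PL against 2.11 to 3.26 elsewhere. The fall after weaning missed the threshold without W2 sample 2 (adjusted p = 0.0636), and the rise over EL missed it without EL sample 3, 4 or 6 or PL sample 3 or 6 (adjusted p = 0.0514 to 0.0885). These calls are of the gene sum. Tested as a transcript, its leading XM_021064295.1 was not called for PL vs MG (1.18, adjusted p = 0.335, scaled 0.131) or PL vs LG (1.29, adjusted p = 0.338, scaled 0.149).

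TGFB3 went the opposite way and was lowest at peak lactation. TGFB3 (chr7:99133873-99162239) stood at 18.9, 17.8 and 31.9 units in MG, 23.5, 22.4 and 24.7 in LG, 20.1, 17.3 and 19.7 in EL and 23.8, 18.6 and 21.0 in W2. In PL it was at 8.91, 12.6 and 7.34 units, below the other 12 samples, which held for 11.3% of all features. The log2 fold changes were −1.19 ± 0.24 for PL vs MG (adjusted p = 0.0042), −1.28 ± 0.24 for PL vs LG (adjusted p = 0.00472), −0.98 ± 0.24 for PL vs EL (adjusted p = 0.0362) and 1.12 ± 0.24 for W2 vs PL (adjusted p = 0.00422). Against the median of all features the difference for PL vs MG was −0.62, and after scaling it was −0.55 with an adjusted p of 0.188, so its fall beyond that of the typical gene was not called. The other 3 calls were lost after scaling too, at −0.79 for PL vs LG (adjusted p = 0.0725), −0.66 for PL vs EL (adjusted p = 0.167) and 0.40 for W2 vs PL (adjusted p = 0.321). With scaling and PL sample 2 left out, PL vs LG alone was called (−0.93, adjusted p = 0.0493). As deposited, the call for PL vs EL was lost in 9 of the 15 fits that left out 1 sample (LG 1, 3 or 4, EL 3, 4 or 6, PL 2 or 6, or W2 6; adjusted p = 0.0505 to 0.124), while the other 3 calls held in all of them.

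TGFB1 (chr6:49332169-49348642) was at 15.3, 23.7 and 19.9 units in MG, 11.9, 12.2 and 17.0 in LG and 14.2, 8.16 and 11.5 in EL. It stood at 9.01, 15.5 and 8.92 units in PL and at 16.5, 18.0 and 17.4 in W2. The MG samples lay above all EL samples (27.5% of all features). The W2 samples lay above all EL (35.5%) and PL samples (40.6%), while PL overlapped with MG, LG and EL. It was 1.76-fold lower in PL than in MG (−0.81 ± 0.27, adjusted p = 0.0423), a difference of −0.24 against the median of all features and −0.17 after scaling (adjusted p = 0.666), and 10 of the 15 fits with 1 sample left out lost the call (MG 3 or 6, LG 1 or 3, EL 6, PL 2 or 6, or any W2 sample; adjusted p up to 0.148). For W2 vs PL the log2 fold change of 0.66 was not called (adjusted p = 0.0756) and became −0.06 after scaling, and without PL sample 3 it was 0.91 with an adjusted p of 0.0184.

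**Figure D1:**
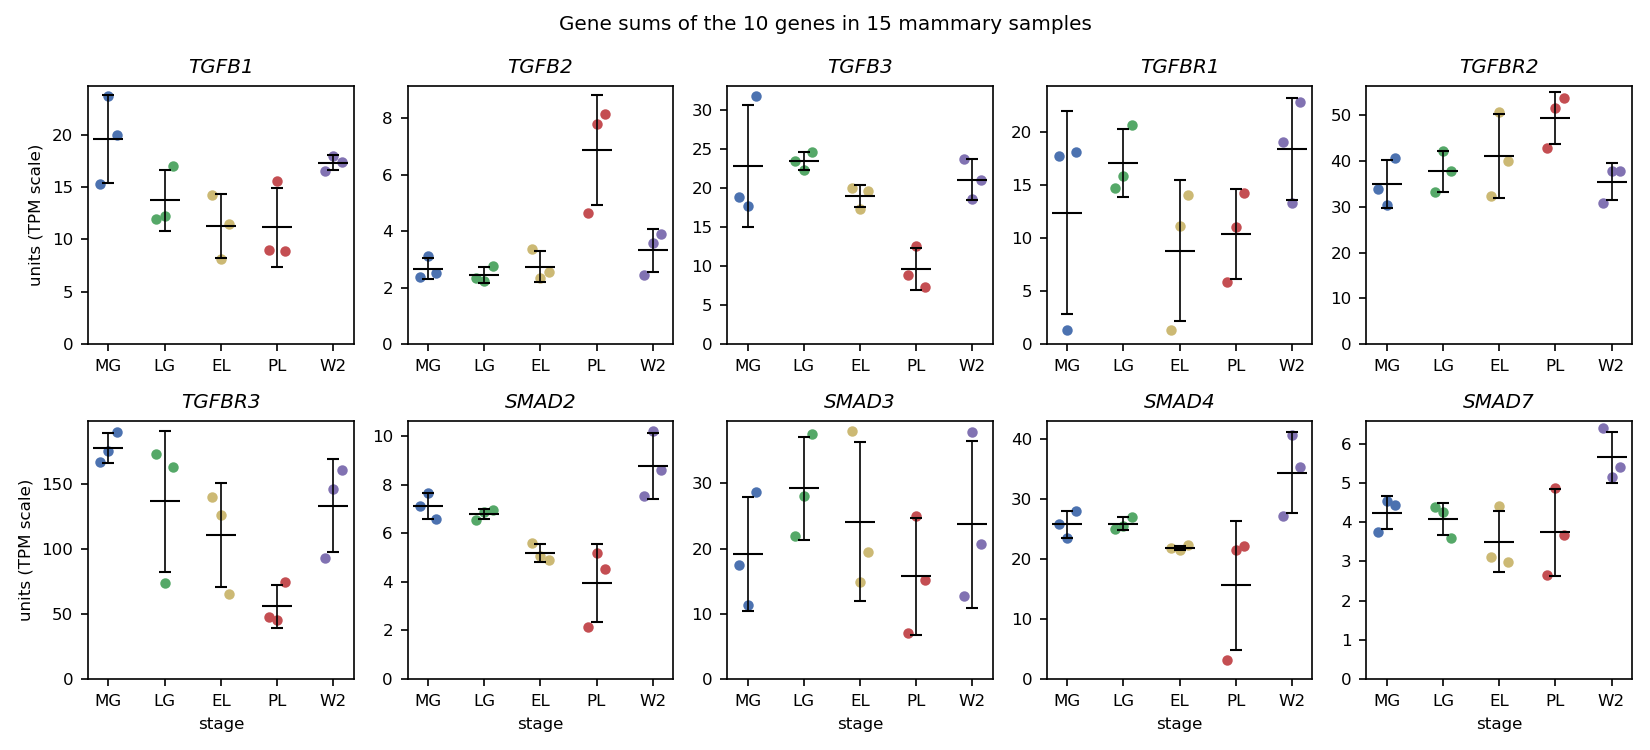
Units (TPM scale) of each of the 10 genes, summed over its transcripts, in the 3 counted samples of each stage; points are samples, bars are the mean and error bars the SD. TGFB2 sits at 4.64 to 8.16 units in PL against 2.24 to 3.91 elsewhere, and TGFB3 at 7.34 to 12.6 in PL against 17.3 to 31.9.

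Together the ligands made up 22.6 to 36.0 units in PL and 27.8 to 54.3 units in the other stages. TGFB2 took 25.2% ± 7.12 (SD, n = 3) of this sum in PL, against 7.98% ± 1.93 in W2, 8.29% ± 0.675 in EL, 6.17% ± 0.0833 in LG and 6.06% ± 1.24 in MG. TGFB3 took 34.9% ± 4.73, 50.5% ± 4.68, 58.0% ± 4.51, 59.5% ± 3.56 and 50.1% ± 9.49 in the same order, and TGFB1 29.3 to 53.1% over all samples. A ratio of genes within a sample does not depend on how that sample is scaled. The ratio of TGFB2 to TGFB3, picked after the levels had been seen and so given with no test, was 0.521, 0.618 and 1.11 in PL and 0.0791 to 0.193 in the other 12 samples. With 0.5 added to both genes, the mean log2 ratio in PL was higher by 2.28 than in those samples. The added 0.5 makes this difference, unlike the ratios themselves, depend on how a sample is scaled. PL sample 2 had the lowest of the 3 PL ratios and still lay above every sample of the other stages.

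**Figure D2:**
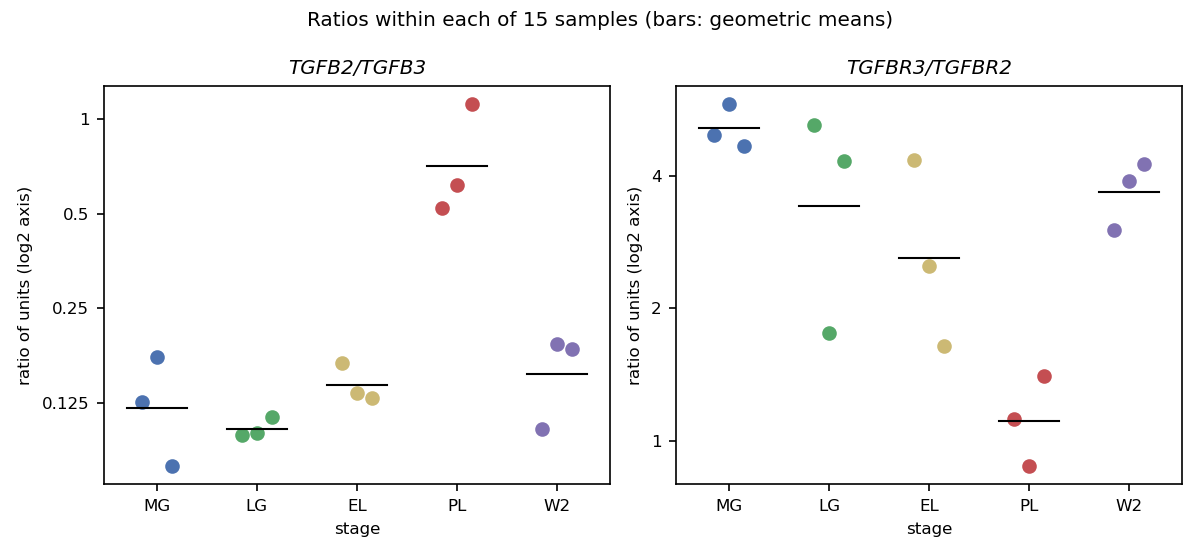
Ratio of units of TGFB2 to TGFB3 (left) and of TGFBR3 to TGFBR2 (right) within each of the 15 counted samples, on a log2 axis; points are samples and bars are geometric means. The PL samples lie apart from the other 12 in both panels, at 0.521 to 1.11 against 0.0791 to 0.193 and at 0.878 to 1.40 against 1.64 to 5.81.

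The ligand-binding receptor TGFBR2 (chr13:16784370-16875828) had its highest mean at peak lactation. It stood at 42.8, 51.6 and 53.7 units in PL and at 30.8, 37.8 and 37.9 in W2. Before peak lactation it was at 33.8, 30.3 and 40.7 units in MG, 33.2, 42.3 and 37.8 in LG and 32.4, 50.8 and 40.1 in EL. The PL samples lay above those of MG, LG and W2 (3.37%, 3.42% and 3.37% of all features), but EL sample 4 lay among them. As deposited no difference was called (0.50 ± 0.19 for PL vs MG with an adjusted p of 0.0734, and −0.47 ± 0.19 for W2 vs PL with an adjusted p of 0.0752). After median ratio scaling the difference was 1.15 for PL vs MG (adjusted p = 0.0048), 0.89 for PL vs LG (adjusted p = 0.0223), 0.61 for PL vs EL (adjusted p = 0.131) and −1.20 for W2 vs PL (adjusted p = 0.0032). Its calls thus rest on the scaling. With scaling and PL sample 2 left out, the call for PL vs LG was lost (0.80, adjusted p = 0.0553). Those for PL vs MG and W2 vs PL held (adjusted p = 0.0135 and 0.0094).

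TGFBR1 (chr1:240842735-240918267), the kinase that passes the signal to the SMADs, ranged from 1.32 to 22.9 units and was not called in any comparison. MG sample 3 and EL sample 3 stood at 1.34 and 1.32 units, against 5.86 to 22.9 in the other 13 samples. In MG sample 3 all of it came from XM_005660270.3 and in EL sample 3 from NM_001038639.1. With this spread the 95% interval for W2 vs PL ran from −1.06 to 2.75 on the log2 scale.

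The co-receptor TGFBR3 (chr4:125109939-125310788) was the most abundant of the 10 genes, with a mean of 123 units that 96.5% of reference genes did not reach. It was at 167, 176 and 190 units in MG, 173, 74.3 and 163 in LG and 140, 127 and 65.7 in EL. Levels were 48.0, 45.3 and 75.2 units in PL and 93.0, 147 and 161 in W2. The PL samples lay below those of MG and W2 (35.9% and 40.6% of all features) but overlapped with LG sample 3 and EL sample 6. It was 3.23-fold lower in PL than in MG (−1.69 ± 0.36, adjusted p = 0.00637), the largest fall among the 10 genes in that comparison. It was also lower than in LG (−1.22 ± 0.36, adjusted p = 0.0421) and it rose after weaning (1.24 ± 0.36, adjusted p = 0.021). The difference to EL of −0.94 was not called (adjusted p = 0.174). After scaling the fall from MG was −1.03 (adjusted p = 0.0829), the difference to LG −0.71 (adjusted p = 0.251) and the rise after weaning 0.50 (adjusted p = 0.387). The call for PL vs LG was lost in 10 of 15 fits with 1 sample left out (any MG sample, LG 1 or 4, EL 4, PL 2 or 3, or W2 3 or 6; adjusted p up to 0.15) and that for W2 vs PL in 4 (PL 2 or 3, or W2 3 or 6; adjusted p = 0.06 to 0.0776).

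Within samples, TGFBR3 exceeded TGFBR2 by 4.67 to 5.81 times in MG, 1.76 to 5.20 times in LG, 1.64 to 4.33 times in EL and 3.02 to 4.24 times in W2. In PL the ratio was 1.12, 0.878 and 1.40, below every other sample. Like the ligand ratio it was picked after the levels had been seen, and the remaining 4 ratios computed (TGFB1/TGFB3, TGFBR1/TGFBR2, SMAD3/SMAD2 and SMAD7/SMAD4) overlapped between PL and the other samples.

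The transcripts of TGFBR3 varied far more than their sum. XM_021088719.1 held 1.12 to 72.2% of the gene's units, XM_021088721.1 4.90 to 70.8% and NM_214272.1 2.18 to 82.9%, depending on the sample. In MG sample 1 XM_021088719.1 led with 90.8 units and NM_214272.1 had 8.07, whereas in MG sample 3 they were at 17.4 and 83.3. The same exchange appeared within EL, where NM_214272.1 stood at 116, 2.76 and 24.5 units. None of the 4 transcripts was a differentially expressed transcript (DET, adjusted p below 0.05 and absolute log2 fold change of at least 2) in any comparison, and how far the assignment of reads among transcripts with shared exons contributes to this spread was not tested.

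**Figure D3:**
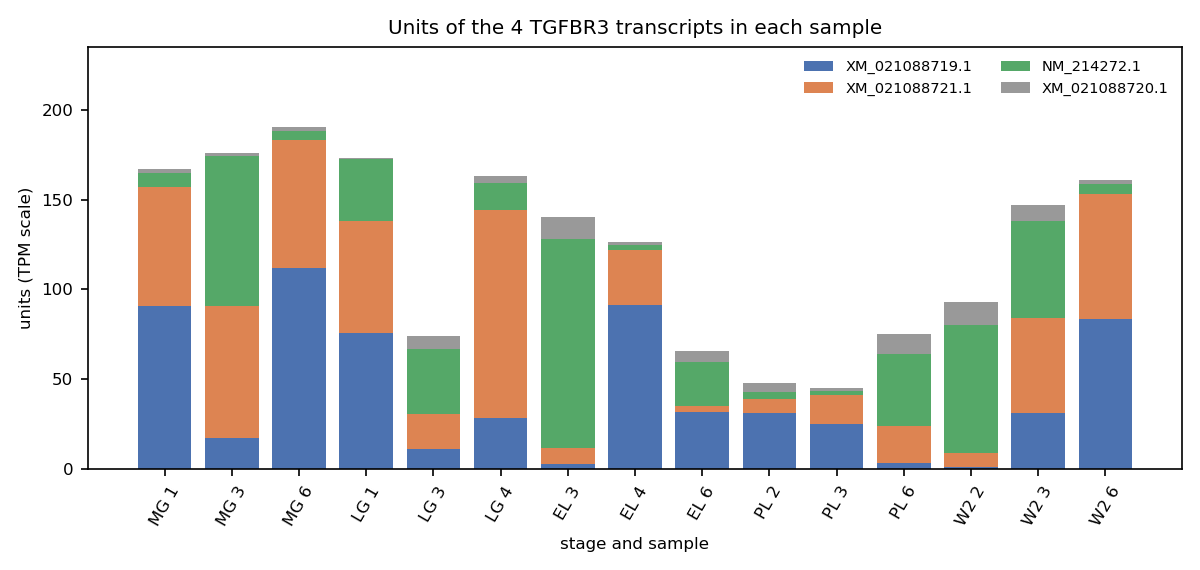
Units (TPM scale) of the 4 TGFBR3 transcripts, stacked, in each of the 15 counted samples. The sums are lowest in PL (45.3 to 75.2 units), and the leading transcript changes from sample to sample within a stage.

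Among the SMADs, SMAD2 changed and SMAD3 did not pass the test. SMAD2 (chr1:97415360-97511388) was at 7.10, 7.65 and 6.60 units in MG, 6.56, 6.88 and 6.96 in LG and 5.61, 5.06 and 4.91 in EL. It reached 2.15, 5.18 and 4.52 units in PL and 7.54, 10.2 and 8.59 in W2. In PL sample 2 all SMAD2 units were on XM_005659448.3, a transcript at 0 in 11 of the 15 samples, while the leading XM_013992841.2 was at 0. The MG and LG samples lay above all EL samples (27.5% and 16% of all features), and of them only MG sample 3 reached the range of W2. It fell for PL vs MG (−0.85 ± 0.26, adjusted p = 0.0309) and rose for W2 vs PL (1.13 ± 0.26, adjusted p = 0.00636). Relative to the median of all features these differences were −0.28 and 0.45, and after scaling neither was called (adjusted p = 0.395 and 0.111). The fall from MG missed the threshold without MG sample 1, 3 or 6 (adjusted p = 0.0609 to 0.0954), and was −0.51 without PL sample 2 (adjusted p = 0.0462), which moved it by more than 1.5 times.

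SMAD3 (chr1:164998457-165124455) ranged from 7.00 units in PL sample 2 to 38.0 in EL sample 3, and each stage spanned a wide range (12.7 to 37.8 in W2, 14.9 to 38.0 in EL). No comparison was called, and the interval for W2 vs PL ran from −0.52 to 1.74 on the log2 scale. SMAD4 (chr1:100521843-100633501), the partner both share, stayed within 21.5 to 28.0 units in all MG, LG and EL samples and in PL samples 3 and 6. It was at 3.20 in PL sample 2 and at 27.2, 40.5 and 35.3 in W2. Its rise for W2 vs PL (1.49 ± 0.51, adjusted p = 0.0422) became 0.63 without PL sample 2 (adjusted p = 0.0113) and 0.78 after scaling (adjusted p = 0.267), and leaving out any 1 MG, LG, EL or W2 sample lost the call (adjusted p = 0.0544 to 0.118). In PL sample 2 all SMAD4 units were on XM_021082766.1, a transcript with at most 0.06 units in the other samples except W2 sample 6 (11.8), while NM_214072.1, which held most of the gene's units over all samples, was at 0.

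The inhibitor SMAD7 (chr1:98512800-98543924) was low throughout, at 2.66 to 6.40 units. The W2 samples at 6.40, 5.15 and 5.41 were the highest 3 of the 15. For W2 vs PL the log2 fold change of 0.57 was not called (adjusted p = 0.0831), lay below the median of all features by 0.11 and was −0.10 after scaling. Without PL sample 3 it was 0.75 with an adjusted p of 0.0292.

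Counting the 10 genes by comparison, 5 were called for PL vs MG (TGFB2 higher, and TGFB1, TGFB3, TGFBR3 and SMAD2 lower), where 25.2% of all features were called. For PL vs LG 3 were called (TGFB2 higher, and TGFB3 and TGFBR3 lower) against 14.7% of all features, and for PL vs EL 2 (TGFB2 higher, TGFB3 lower) against 4.62%. For W2 vs PL 5 were called (TGFB2 lower, and TGFB3, TGFBR3, SMAD2 and SMAD4 higher) against 32.8%. By direction, the 1 gene higher in PL than in MG stood against 2.23% of features called higher, and the 4 lower genes against 23%. The median log2 fold change of the 10 genes was −0.58 for PL vs MG and 0.75 for W2 vs PL, close to the −0.57 and 0.68 of all features. These 4 comparisons share the PL samples and are not independent.

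In the 6 comparisons among MG, LG, EL and W2 limma called none of the 60 gene-comparison pairs (lowest adjusted p = 0.135), while 4 of them had an unadjusted p below 0.05. Those were TGFB1 for EL vs MG and W2 vs EL and SMAD2 and SMAD7 for W2 vs EL. Of all features, 0.0115% were called for LG vs MG and for W2 vs MG, 0.0269% for EL vs MG, 0.0154% for EL vs LG, 0.0346% for W2 vs LG and 0.553% for W2 vs EL. For W2 vs EL the count turned on 1 library outside the comparison, which enters the shared estimate of spread. Without PL sample 2, SMAD2 (0.70, adjusted p = 0.0147), SMAD4 (0.62, adjusted p = 0.0166) and SMAD7 (0.63, adjusted p = 0.0445) were called higher in W2, together with 17% of all features. Leaving out any other counted sample called none of the 60. In the order of stage means the only neighbouring stages that differed by the test were PL and W2 for TGFB2 and EL and PL for TGFB3, and no neighbours differed for the other 8 genes.

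The moderated F test over the 5 stages called TGFB3 (F = 9.70, adjusted p = 0.0118), TGFB2 (F = 8.13, adjusted p = 0.0188), TGFBR3 (F = 5.99, adjusted p = 0.0402) and SMAD2 (F = 5.70, adjusted p = 0.0451), where 18.3% of features were called. After median ratio scaling it called TGFB2 (F = 37.0, adjusted p = 0.000409) and TGFBR2 (F = 10.8, adjusted p = 0.0153) alone among the 10, where 8.16% were called. Over all comparisons, 15 gene-comparison pairs of 6 genes were called as deposited and 7 pairs of 2 genes, TGFB2 and TGFBR2, after scaling. The scaled calls were 2 of 10 for PL vs MG (11% of features), 2 for PL vs LG (8.93%), 1 for PL vs EL (5.25%) and 2 for W2 vs PL (13.1%).

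**Figure D4:**
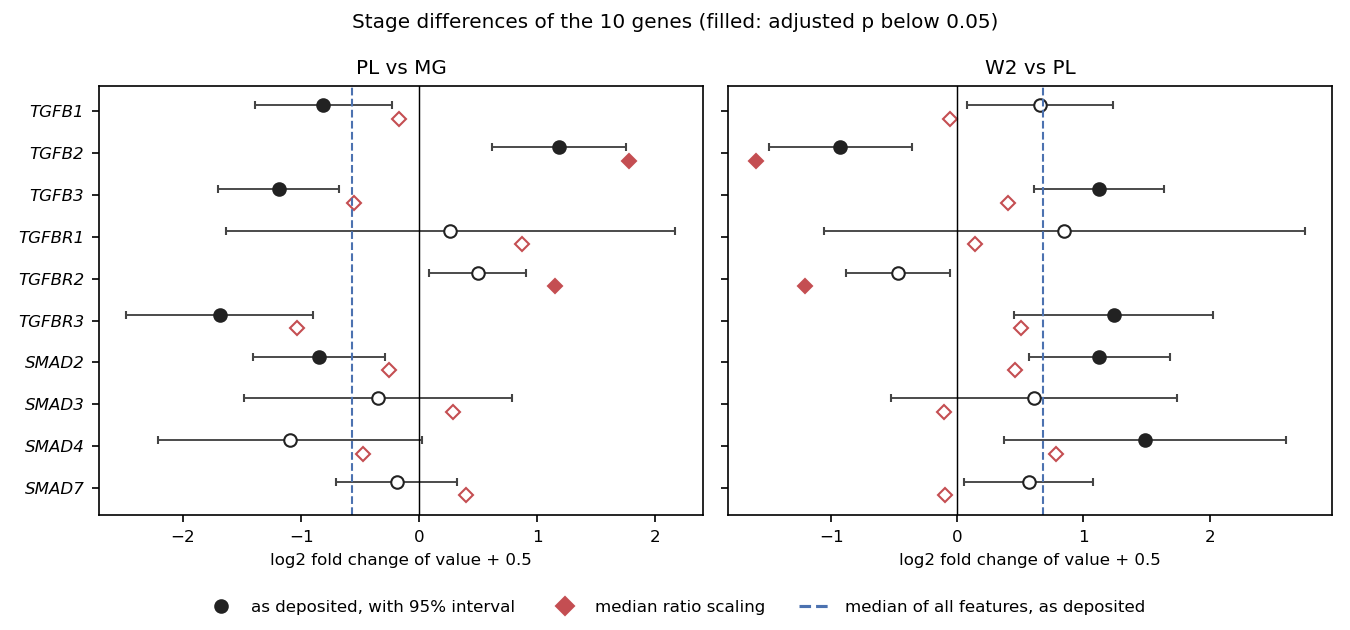
Log2 fold change (value + 0.5) of the 10 genes for PL vs MG and W2 vs PL; circles are values as deposited with 95% intervals, diamonds values after median ratio scaling, filled symbols have an adjusted p below 0.05 and the dashed line is the median of all features as deposited (−0.57 and 0.68). TGFB2 moves against the dashed line in both panels, and after scaling TGFB2 and TGFBR2 are the filled ones.

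Of the 28 transcripts, 1 was a DET, TGFB1 XM_021093503.1. It stood at 6.21, 3.96 and 4.55 units in MG, at 1.61, 0 and 3.12 in LG and at 0, 2.27 and 0.11 in EL. It was at 0.59, 0.10 and 0 units in PL and at 4.69, 6.96 and 2.60 in W2. The MG and W2 samples did not overlap with the PL samples. It fell for PL vs MG (−2.95 ± 0.76, adjusted p = 0.0476) and rose for W2 vs PL (2.84 ± 0.76, adjusted p = 0.0415), where 1.76% and 2.84% of all transcripts were DETs. Both calls were lost after scaling (adjusted p = 0.141 and 0.152), and no transcript passed in 10 of the 15 fits with 1 sample left out (any MG or PL sample, LG 1, EL 6, or W2 2 or 3). The other TGFB1 transcript, NM_214015.2, carried 83.2% of the gene's units. The leading transcripts of the remaining genes were XM_021064295.1 for TGFB2 (92.9% of its units), NM_214198.1 for TGFB3 (58.3%), XM_005660270.3 for TGFBR1 (90.8%), XM_021071493.1 for TGFBR2 (100%), XM_021088719.1 for TGFBR3 (34.5%), XM_013992841.2 for SMAD2 (44.9%), NM_214137.1 for SMAD3 (100%), NM_214072.1 for SMAD4 (63.1%) and XM_005659454.3 for SMAD7 (55.6%). In W2 sample 3 TGFB2 was carried by XM_021064293.1 alone (3.60 units), so that transcript accounts for the whole gene sum there.

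The other genes of the pathway were taken from 6 lists of 69 genes, 63 of them measured (INHA, BMP2, GDF11, GDF15, NODAL and ACVR2B were not analysed here). For PL vs MG 2 were called higher and 12 lower, and for W2 vs PL 15 higher and 3 lower. Among all features 30.4% were called higher and 2.48% lower for W2 vs PL. After median ratio scaling the lists had 8 higher and 4 lower for PL vs MG (5.04% and 5.96% of all features) and 5 higher and 7 lower for W2 vs PL (7.42% and 5.66%), so the direction of the lists as a whole rests on the scaling. Over all comparisons 19 genes were called as deposited and 15 after scaling.

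Among the 11 genes of latency and activation, which hold the ligands inactive in the matrix or free them, LTBP2 rose and FBN1 fell for PL vs MG (2.23% and 23% of all features). After scaling 2 were higher, LTBP2 and the integrin subunit ITGAV, and 0 lower (5.04% and 5.96% of all features). LTBP2, a matrix protein related to the latent TGF-beta binding proteins, was at 3.03, 4.93 and 3.05 units in MG and 7.36, 96.5 and 47.6 in PL (3.03 ± 0.67, adjusted p = 0.00714, and scaled 3.64, adjusted p = 0.00194). Its W2 samples were back at 4.36, 6.35 and 4.06 units. FBN1, fibrillin of the microfibrils that anchor latent complexes, was at 23.3, 28.4 and 31.0 units in MG and 9.41, 6.00 and 4.69 in PL (−2.01 ± 0.48, adjusted p = 0.0111, and scaled −1.37, adjusted p = 0.114). The median of the list was 0.01 against −0.57 for all features.

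Of the 5 measured superfamily ligands limma called none in any comparison (4 of 50 pairs at an unadjusted p below 0.05), and after scaling 1 was called, INHBB for PL vs EL (1.90, adjusted p = 0.0264). INHBB, a subunit of activin and inhibin, was also called as deposited once PL sample 2 was left out, at 1.55 for PL vs MG (adjusted p = 0.0116), 2.29 for PL vs EL (adjusted p = 0.00291) and −1.42 for W2 vs PL (adjusted p = 0.0137), and for PL vs LG. Of the 8 other receptors 1 was called higher for W2 vs PL (30.4% of all features), the activin receptor ACVR2A. It was at 0.07, 4.63 and 2.54 units in PL and 7.18, 7.39 and 6.60 in W2 (1.86 ± 0.58, adjusted p = 0.0277, and scaled 1.39, adjusted p = 0.157). Without PL sample 2 the difference was 0.93 (adjusted p = 0.0208), and without any 1 W2 sample the call was lost (adjusted p up to 0.0725). After scaling 0 of the 8 receptors were higher for W2 vs PL and 1, not ACVR2A, was lower (7.42% and 5.66% of all features).

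Of 16 other SMADs and pathway regulators, 5 rose for W2 vs PL and none fell, a share of the list close to the 30.4% of all features called higher. After scaling 1 was higher, BAMBI, and 1 lower, the deubiquitinase USP15 (−0.72, adjusted p = 0.0114), against 7.42% and 5.66% of all features. As deposited without PL sample 2 there were 3 higher and 0 lower, where 5959 and 1010 of 26019 features were called. BAMBI, a decoy receptor that lacks the kinase, was at 0, 0 and 0.66 units in PL and 4.53, 3.64 and 4.59 in W2 (2.84 ± 0.37, adjusted p = 0.000324, and scaled 2.52, adjusted p = 0.00134). It was at 0.55 to 0.91 units in EL against 1.60 to 3.39 in MG. SMURF2, a ubiquitin ligase that acts on SMADs and receptors, was listed at 0 in PL sample 2 and was at 9.51 in PL sample 3 and 0.17 in PL sample 6, against 9.99 to 14.7 in W2 (3.08 ± 1.10, adjusted p = 0.0476). Its call was lost in 12 of the 15 fits with 1 sample left out (all but LG 3 or 4 and PL 3), with an adjusted p of 0.183 without PL sample 2.

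Of 13 matrix and cytoskeletal targets, 1 was called higher and 4 lower for PL vs MG (2.23% and 23% of all features). After scaling 3 were higher (CTGF and the smooth muscle genes TAGLN and ACTA2) and 2 lower (VCAN and COL3A1), against 5.04% and 5.96% of all features. As deposited without PL sample 2 there were 2 higher and 3 lower, as were 993 and 4339 of 26019 features. CTGF, a matricellular protein induced by the pathway and by other signals, was at 20.0, 3.04 and 30.5 units in MG and 70.1, 117 and 77.7 in PL (2.72 ± 0.75, adjusted p = 0.0207, and scaled 3.36, adjusted p = 0.0156). All 3 PL samples lay above the other 12 (1.1% of all features), whose highest value was 30.5. The call was lost without MG sample 3 (1.78, adjusted p = 0.0764) and without PL sample 3. The proteoglycan VCAN was at 7.59, 13.8 and 9.29 units in MG and 0.52, 2.07 and 1.28 in PL (−2.64 ± 0.36, adjusted p = 0.000511, and scaled −2.15, adjusted p = 0.00106). COL3A1, a fibrillar collagen, was at 795, 1104 and 966 units in MG and 229, 445 and 245.0 in PL (−1.69 ± 0.34, adjusted p = 0.00405, and scaled −1.03, adjusted p = 0.0361). CTGF thus moved opposite to VCAN and COL3A1, with and without scaling.

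Of 10 other targets, 5 rose and 1 fell for W2 vs PL (30.4% and 2.48% of all features), and 2 rose and 1 fell after scaling (7.42% and 5.66%). SNAI2, a repressor of epithelial genes, was at 2.39, 8.41 and 3.29 units in PL and 16.2, 15.8 and 22.8 in W2 (2.01 ± 0.34, adjusted p = 0.00135, and scaled 1.32, adjusted p = 0.00841). MYC, a growth regulator that the pathway represses in epithelium, was at 5.48, 1.16 and 2.87 units in PL and 18.8, 10.4 and 13.0 in W2 (2.14 ± 0.39, adjusted p = 0.00186, and scaled 1.46, adjusted p = 0.0627). JUNB, an early target, was at 4.59, 26.2 and 20.8 units in PL and 5.28, 4.68 and 5.73 in W2 (−1.32 ± 0.46, adjusted p = 0.045, and scaled −2.01, adjusted p = 0.0045). For JUNB the difference was −2.06 without PL sample 2 (adjusted p = 9.24e-05) and −0.87 without PL sample 3 (adjusted p = 0.158), and the call was lost in every fit that left out a sample other than PL sample 2. For both JUNB and LTBP2, PL sample 2 lay far below the other PL samples.

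**Figure D5:**
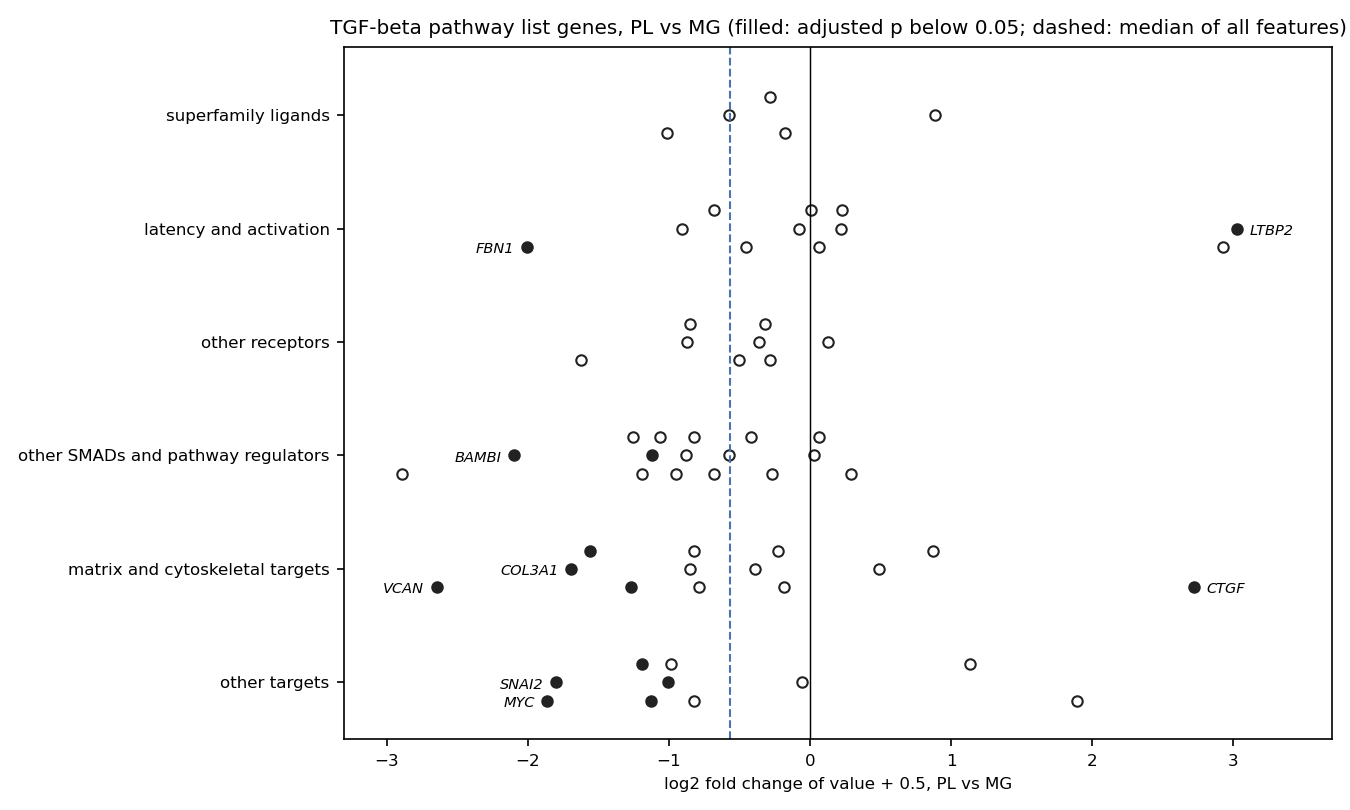
Log2 fold change (value + 0.5) for PL vs MG of the 63 measured pathway genes, as deposited, 1 row of points per list (the vertical offset within a list carries no value); filled points have an adjusted p below 0.05 and the dashed line is the median of all features (−0.57). LTBP2 and CTGF are the 2 called higher, and 12 genes are called lower.

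Markers of some cell types also differed between PL and other stages. Of 6 fibroblast markers 5 were lower for PL vs MG (23% of all features) and 5 higher for W2 vs PL (30.4%), with a summed level of 772 to 1270 units in MG, 252 to 664 in PL and 822 to 1277 in W2. After scaling 1 of 6 was called in each (5.96% and 7.42% of all features). As deposited without PL sample 2 there were 2 lower and 3 higher, as were 4339 and 5959 of 26019 features. COL1A1 and COL1A2 are in this list and in that of the matrix targets. The 5 measured myoepithelial markers had none called as deposited for PL vs MG or W2 vs PL. After scaling 3 were higher for PL vs MG (5.04% of all features) and 3 lower for W2 vs PL (5.66%). As deposited without PL sample 2, 2 were higher and 3 lower, as were 993 and 1010 of 26019 features. ACTA2 is in this list and in that of the matrix targets. The summed luminal markers were at 1343 to 1835 units in MG, 837 to 1766 in PL and 1476 to 1992 in W2. Of these 6 markers 0 were called for PL vs MG and 1 was higher for W2 vs PL (30.4% of all features). After scaling 1 was higher for PL vs MG (5.04%), and for W2 vs PL 0 were higher and 1 was lower (5.66%). Of 4 endothelial, 3 adipocyte and 4 lymphocyte markers measured, 1 in each list was lower for PL vs MG (23% of all features). For W2 vs PL 2, 1 and 1 of them were higher (30.4%). After scaling 1 endothelial marker was lower in each comparison (5.96% and 5.66% of all features) and 0 were higher. No adipocyte or lymphocyte marker was then called in either. The 3 macrophage markers summed to 26.2 to 42.2 units in MG and 17.6, 246 and 300 in PL, through CD14 alone (9.23, 234 and 298 in PL). The other markers had lower levels in PL, with CSF1R at 1.31 to 7.46 units against 12.3 to 20.0 in MG (−2.29, adjusted p = 0.00561) and CD163 at 0.18 to 7.01 against 3.97 to 19.2 (not called for PL vs MG). For W2 vs PL both rose and CD14 fell. The part of these cell types in the differences above was not tested.

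As deposited TGFB3 had the largest F of the 10 genes, though not after scaling, and the genes most like it over the 15 samples were RGL1 (Pearson's r = 0.944), NES (0.931), RHPN2 (0.926), DHRS4 (0.926) and FBXO6 (0.923), among 8149 reference genes with a mean of at least 5 units. Each had its lowest mean in PL, such as 7.07 ± 1.10 units (SD, n = 3) for RGL1 against 13.1 to 15.2 in the other stages. These correlations are descriptions, since the points share the shift of the typical gene in PL.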

How the data were processed

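Total RNA of sow mammary parenchyma was sequenced (30 libraries). Per the labels and the study's methods, the authors used FastQC and Trimmomatic on the reads, HISAT2 to align to Sscrofa11.1, quantified transcripts with StringTie and kept those with FPKM of at least 0.5 in a stage. They name RUVs for unwanted variation; whether the table includes it is not given in the sources used here. The authors named the deposited unit FPKM, but samples add up to between 997480 and 1002643, so they were treated as TPM. The table gives no reads per transcript, so depth is unknown and precision comes from the spread between samples.

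Samples were grouped by title. Near-identical samples (every pairwise median relative difference below 5% over transcripts averaging 10 units or more in the stage, and a mean within 5% of that of the others) were not counted. Transcripts were summed per gene with RefSeq symbols, and log2(value + 0.5) was fitted with limma 3.58.1 in R 4.3.3 (trended variance, 5 stages in a single fit, 10 comparisons), with Benjamini-Hochberg adjustment over all 26019 features or 61773 transcripts. Genes were called at an adjusted p below 0.05, and DETs also needed a log2 fold change of 2 or more in either direction. Fold changes are on the log2(value + 0.5) scale, which understates low genes. Median ratio scaling used the 3522 features with at least 10 units in every sample. No batch is named. The members and lists were chosen with earlier results of these data known. Named were all members, their DETs and leading transcripts, and of each list up to 2 called rises and 2 called falls in the comparison with most calls; INHBB, ITGAV, USP15, TAGLN, ACTA2 and the macrophage markers were named after their values were seen, and POSTN and the other called list genes are counted only. On simulated data for W2 vs PL, 132 of 200 planted log2 changes of 2 were recovered over 26019 features, with 12 false calls. The changes were planted in W2, in features whose geometric mean of value + 0.5 exceeded 5, which TGFB2 and SMAD7 did not reach. The simulated stages had no other difference, and the members changed by less than 2. The recovery therefore does not give the power for these genes. Alternatives were other pseudocounts, a low-value filter, quantile normalization, median ratio scaling, other sample sets, a replicate block, the compared stages alone, no variance trend and reference genes only. Replicate numbers did not pair samples, which came from different sows.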

Additional observations from a re-analysis of the deposited data

How the results depend on the processing

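Other pseudocounts, the low-value filter, dropping the variance trend and testing reference genes only kept the counts of called genes within 1.5 times, except that no transcript was a DET at a pseudocount of 0.1. Quantile normalization and median ratio scaling each called 2 genes in any comparison, 2 for PL vs MG, 2 for W2 vs PL and 2 in the F test, against 6, 5, 5 and 4 as deposited. With median ratio scaling and PL sample 2 left out, a choice made after seeing the data, these were 3, 2, 2 and 2, with TGFB3 added for PL vs LG. For W2 vs PL, quantile normalization, median ratio scaling and the latter without PL sample 2 turned TGFB1 to −0.042, −0.059 and −0.0079, SMAD3 to −0.084, −0.11 and −0.41 and SMAD7 to −0.15, −0.10 and −0.14, and the last turned TGFBR1 to −0.041, and none of these was called. Fitting the compared stages alone, with fewer samples behind the spread, called 2 genes in any comparison, 1 for PL vs MG, 1 for W2 vs PL, no DET (0) and 9 pathway genes, against 19 pathway genes as reported.

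Counting all 6 samples per stage called 10 genes in any comparison, 9 for W2 vs PL, 9 in the F test, 6 DETs and 58 pathway genes, and averaging the near-identical samples into 1 further sample gave 8 for W2 vs PL, 7 in the F test, 3 DETs and 41 pathway genes. By construction both lower the spread of every feature, because the added samples repeat the mean. The shares of all features called in these fits are not given here, so the counts are not a result about these genes. With 1 sample left out, 4 to 7 genes were called in any comparison, 3 to 5 for PL vs MG, 3 to 6 for W2 vs PL and 2 to 4 in the F test, with 0 to 1 DETs and 14 to 33 pathway genes, the highest without PL sample 2.

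The replicate numbers name different sows, and same-numbered samples of different stages correlated at −0.10 to 0.14 in their deviations from stage means (19 pairs), like those with different numbers. With the number as a replicate block 2 genes were called for PL vs MG, 5 for W2 vs PL, 1 in the F test and 5 in any comparison.

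There were no read counts and n was 3, and wide spreads within stages limit TGFBR1, SMAD3 and single transcripts. Without PL sample 2, 3 of the 10 genes were called for W2 vs EL, against 0 as reported. The fall of TGFB3, TGFBR3 and SMAD2 at PL and the rise of TGFBR2 depend on whether levels are read as shares of all units or against the typical gene, whereas TGFB2 was called for PL vs MG and PL vs LG in 26 of 27 settings each, the exception being the compared stages alone.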
